A study of Mus musculus with 4 samples.

Results

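The genes described here are 10 genes known for the intestinal tuft cell, namely *Dclk1*, *Trpm5*, *Pou2f3*, *Il25*, *Alox5ap*, *Gfi1b*, *Sucnr1*, *Gnat3*, *Plcb2* and *Il17rb*. They were chosen by name, and their 14 probes were found on the arrays through the RefSeq accession of each probe. All 10 had at least 1 probe, out of 32585 genes or unmatched identifiers on the array. RNA from spinal cord and duodenum of WT and IP6K2-/- mice was hybridized to 4 one-color arrays of 1 slide, 1 array for each genotype and tissue. The mice were males aged 20 weeks, WT being littermate controls, and all 4 samples shared the same diet history, a switch to the purified diet iVid-neo for 1 week followed by a 48 h fast. The knockout line lacks exon 6 of *Ip6k2*, which encodes the kinase domain, and the duodenum RNA came from the organ with no sorting of cells. Whether an array holds RNA of 1 mouse or of a pool is not given in the sources used here. Each difference below therefore compares 1 array with another, has no replicates behind it and was not tested.

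Tuft cells are scattered cells of the gut epithelium that sense the contents of the lumen with the signaling cascade used by taste cells, in which a G protein activates phospholipase C and calcium then opens the cation channel TRPM5. They depend on the transcription factor POU2F3. Once stimulated by succinate or by parasites, they release interleukin-25, which acts on type 2 innate lymphoid cells, and cysteinyl leukotrienes, which are made from arachidonic acid. Several of these genes are also used elsewhere, *Dclk1* in neurons, *Gfi1b* in erythroid cells and megakaryocytes, and *Alox5ap* and *Plcb2* in leukocytes, so that a probe on RNA of a whole organ reports all of these cells together. In such RNA, fewer cells of a type and less RNA per cell cannot be told apart.

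The processed signal used here is the fluorescence intensity of a spot after the scanner software subtracted the background. For comparisons, log2 of the signal was taken and the 75th percentile of the array was subtracted. That percentile was 905 on the WT spinal cord array, 971 on the spinal cord array labelled IP6K2-/-, 68.0 on the WT duodenum array and 323 on the duodenum array labelled IP6K2-/-. By this percentile the WT duodenum array was thus dimmer than its counterpart by 4.75 times. Its spiked-in controls were brighter, with a mean log2 signal of 10.99 against 10.24. The directions of the tuft cell genes between the duodenum arrays rest on how this gap is removed. The *Ip6k2* probe gave signals of 452 and 1320 on the WT and IP6K2-/- labelled spinal cord arrays, and of 139 and 572 on the duodenum arrays. In spinal cord it was thus the WT array that had the lower signal. Where the probe lies relative to exon 6 is unknown here, and genotypes are named as labelled.

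Whether the duodenum arrays detected tuft cell RNA was examined first. Of the 10 genes, 4 were well above background on the WT duodenum array (*Dclk1*, *Trpm5*, *Alox5ap* and *Gfi1b*) and 8 on the array labelled IP6K2-/-, which added *Pou2f3*, *Sucnr1*, *Plcb2* and *Il17rb*. In spinal cord 5 were so on the WT array, against 7 with the label IP6K2-/-. Over all genes, 51.8% and 65.6% were well above background in duodenum and 75.5% and 76.1% in spinal cord, in the same order. Among the markers that define the tuft cell, *Trpm5* and *Avil* were well above background on both duodenum arrays, while *Gnat3* and *Il25* were so on neither.

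**Figure D1:**
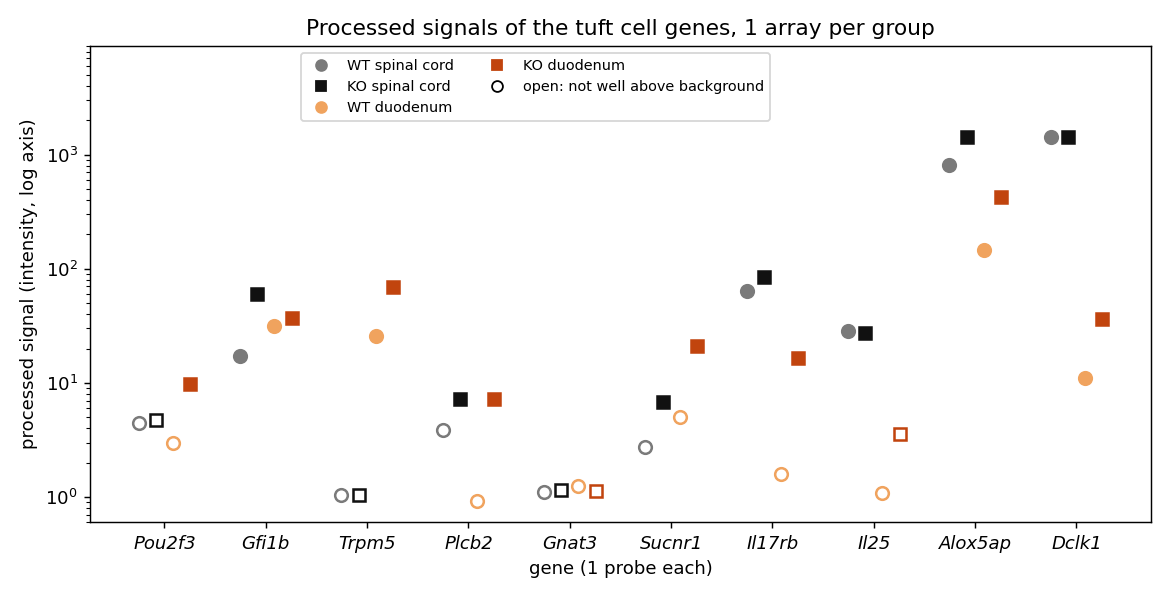
Processed signal (intensity, log axis) of the 10 tuft cell genes on each of the 4 arrays, 1 probe per gene and 1 array per group, with open symbols for a probe not well above background. *Trpm5* is filled in duodenum alone, at 26.0 and 69.2, and *Gnat3* is open on all 4 arrays.

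Upstream sequences of the genes were searched for letters that POU and GATA factors are known to bind. Those with a match are shown, with that of *Trpm5* beside them. RefSeq promoter windows of GRCm38.p6 were found for 7 of the 10 genes, in 8 windows since *Dclk1* has 2 starts, and none for *Pou2f3*, *Il25* and *Alox5ap*. The 250 bases before each start were searched on both strands for ATGCAAAT, the octamer of POU factors, and for GATAAG, a form of the GATA motif. Both motifs were chosen with the sequences in view. The octamer occurs in 1.60% of all 32851 windows of this length and in 1 of the 8 here, 40 bases before the start of *Sucnr1*, the receptor for succinate. The GATA motif occurs in 6.55% of all windows and in 1 of the 8, 113 bases before the start of *Gfi1b*. Neither occurs in the window of *Trpm5*, which is shown because its probe was well above background on both duodenum arrays and on neither spinal cord array. Capitals mark the matches, and a match is a description of the letters only.
Sucnr1, chr3:60081619-60081868, plus strand: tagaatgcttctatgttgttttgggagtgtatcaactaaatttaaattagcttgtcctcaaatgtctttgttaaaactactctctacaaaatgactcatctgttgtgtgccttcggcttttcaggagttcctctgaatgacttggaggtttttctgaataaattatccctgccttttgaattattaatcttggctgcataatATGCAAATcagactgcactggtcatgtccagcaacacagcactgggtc
Gfi1b, chr2:28621983-28622232, minus strand: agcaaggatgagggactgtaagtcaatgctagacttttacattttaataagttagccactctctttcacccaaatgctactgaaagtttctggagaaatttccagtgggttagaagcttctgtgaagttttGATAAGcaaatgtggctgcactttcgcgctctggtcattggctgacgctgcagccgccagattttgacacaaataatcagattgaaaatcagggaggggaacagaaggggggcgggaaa
Trpm5, chr7:143094643-143094892, minus strand: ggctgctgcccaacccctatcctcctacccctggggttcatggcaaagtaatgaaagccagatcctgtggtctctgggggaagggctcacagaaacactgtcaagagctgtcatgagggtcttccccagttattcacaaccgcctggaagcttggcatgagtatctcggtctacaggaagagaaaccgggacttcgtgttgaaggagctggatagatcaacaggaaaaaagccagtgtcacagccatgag

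The transcription factors came first. POU2F3 is required for tuft cells to form, and its probe gave signals of 4.42 and 4.72 on the WT and IP6K2-/- labelled spinal cord arrays, neither well above background. The duodenum signals were 2.99 and 9.83 in that order, and only the latter was well above background. The lowest signal that counted as well above background on the WT duodenum array corresponded to a normalized log2 value of -3.99, higher than the -5.04 of *Pou2f3* on the other array, so no fold between genotypes was measurable. Between the tissues on the arrays labelled IP6K2-/-, *Pou2f3* was at least 6.27-fold higher in duodenum than in spinal cord, a log2 bound of 2.65 that dropped to 1.51 under normexp and 0.79 with spiked-in controls.

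*Gfi1b*, which encodes a transcriptional repressor shared by tuft cells and the erythroid and megakaryocyte lineages, was read by 1 probe. Its signal was 17.4 on the WT and 59.9 on the IP6K2-/- labelled spinal cord array, and 31.7 and 36.7 on the duodenum arrays, well above background on all 4. After normalization it was lower by 4.10-fold on the duodenum array labelled IP6K2-/- (log2 difference -2.03, technical SD 0.14) and higher by 3.22-fold on the spinal cord array with that label (1.69, technical SD 0.15). The technical SD was estimated from the probes with 10 spots per array, so it holds the noise between spots of an array and none between mice. The raw duodenum signals differed by 1.16 times in the opposite direction. The spinal cord difference fell to 0.53 under normexp background correction, which models signal and background together.

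Since *Gfi1b* also belongs to blood lineages, genes of those cells were set beside it. Of 9 erythroid and megakaryocyte genes, 7 were well above background on a duodenum array and all 7 were at least 2-fold lower on the array labelled IP6K2-/-, with a median of -3.08. Of all genes seen on a duodenum array, 11.9% were at least 2-fold lower. In spinal cord all 9 were higher on the array labelled IP6K2-/-, 6 of them by at least 2-fold, with a median of 1.21. There 41.4% of all genes on both arrays were higher, and 2.28% of genes seen on either array were at least 2-fold higher. The alpha globin gene *Hba-a1* gave 40862 and 81434 in spinal cord and 17436 and 5007 in duodenum, WT before IP6K2-/- labelled, so that it was lower in duodenum even before scaling. Summed over the 9 genes, the signal was 68034 and 147017 in spinal cord and 20380 and 6962 in duodenum. The erythroid regulators *Gata1* and *Klf1* were well above background on both spinal cord arrays and on neither duodenum array. *Gfi1b* thus had the sign of this list in both tissues after this scaling. With the arrays scaled on spiked-in controls, a setting added for this list after seeing the data, the duodenum median over the 5 genes of the list on both arrays was -0.07 while *Gfi1b* was at 0.97, so the shared sign in duodenum depended on the scaling. In spinal cord the list stayed above 0 under that setting (median 1.05, all 9 genes) and under normexp (1.00, all 9 genes). Under normexp in duodenum the 5 genes of the list on both arrays were all below 0 (median -2.35), and *Gfi1b* was at -1.55. The part of blood cells in the *Gfi1b* difference was not tested.

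Next came the receptor and the taste-type cascade. *Trpm5*, the cation channel at the end of the cascade, had signals of 1.04 and 1.03 on the spinal cord arrays, not well above background, against 26.0 on the WT and 69.2 on the IP6K2-/- labelled duodenum array. It was at least 77.5-fold higher in duodenum than in spinal cord on the WT arrays and at least 48.5-fold higher on the arrays labelled IP6K2-/-, bounds of 6.28 and 5.60 on the log2 scale that depend on the scaling. They dropped to 3.42 and 2.54 under normexp and to 1.24 and 3.74 with spiked-in controls, higher in duodenum each time. Between the duodenum arrays the normalized value was 1.78-fold lower on the array labelled IP6K2-/- (log2 difference -0.83, technical SD 0.13), although the raw signal there was 2.66 times the WT signal.

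*Sucnr1* gave 2.73 and 6.80 in spinal cord and 5.04 and 21.2 in duodenum, well above background on both arrays labelled IP6K2-/- and on neither WT array. On the arrays labelled IP6K2-/- it was 9.36-fold higher in duodenum than in spinal cord, a log2 difference of 3.23 that became 1.69 under normexp and 1.37 with spiked-in controls. Its difference between genotypes had no measurable fold in duodenum. In spinal cord its bound was 1.42-fold, higher on the labelled knockout array (log2 bound 0.51). That bound was smaller than its technical SD of 0.58, and no fold was measurable under normexp.

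*Plcb2*, the phospholipase C of taste and tuft cells, gave 3.88 and 7.25 in spinal cord and 0.928 and 7.18 in duodenum by the probe with the higher mean log2 level, again well above background on the arrays labelled IP6K2-/- only. The second *Plcb2* probe was well above background on the spinal cord array labelled IP6K2-/- alone, at 9.29. *Gnat3*, the taste G protein alpha subunit gustducin, stayed between 1.11 and 1.25 on the 4 arrays and was never well above background. Neither gene gave a fold between the duodenum arrays.

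*Dclk1*, a microtubule-associated kinase used as a tuft cell marker and expressed in neurons, was read by 3 probes that did not give the same value. The probe with the highest mean level had signals of 1428 and 1436 in spinal cord and 11.0 and 36.6 in duodenum, and its duodenum difference was -0.51 (technical SD 0.20). A second probe gave 701 and 800 in spinal cord and 11.4 and 13.7 in duodenum, with a difference of -1.98 (technical SD 0.24). The third gave 2318 and 2500 in spinal cord and 4.34, not well above background, and 25.1 in duodenum. Its bound was 1.22-fold higher on the array labelled IP6K2-/- (log2 bound 0.29, technical SD 0.43). The *Dclk1* probes measured on both duodenum arrays were thus lower on the array labelled IP6K2-/-, by unlike amounts. The bound of the third lay above 0 by less than its technical SD. In spinal cord the 3 probes differed by -0.09, 0.09 and 0.01 between the genotypes, and *Dclk1* was 9.76-fold lower in duodenum than in spinal cord on the WT arrays and 13.0-fold lower on the arrays labelled IP6K2-/- by the first probe. On the WT arrays the second probe was 4.63-fold lower and the third at least 40.1-fold lower. The WT log2 difference of the first probe, -3.29, was -1.57 under normexp and -8.32 with spiked-in controls, lower in duodenum throughout.

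The outputs of the tuft cell were *Il25*, the cytokine itself, *Il17rb*, a subunit of its receptor, and *Alox5ap*, the protein that presents arachidonic acid to 5-lipoxygenase. *Il25* gave 28.7 and 27.4 in spinal cord, well above background on both arrays, and 1.07 and 3.54 in duodenum, well above background on neither. *Il17rb* gave 63.7 and 85.6 in spinal cord and 1.60 and 16.4 in duodenum by its brighter probe, and only the WT duodenum value was not well above background. Both probes were thus brighter in spinal cord than in duodenum before scaling. After scaling, *Il25* was at least 2.10-fold lower in duodenum than in spinal cord on the arrays labelled IP6K2-/- (log2 bound -1.07, and -0.66 under quantile normalization of the 4 arrays). *Il17rb* was 1.74-fold lower there by its brighter probe (-0.80), a direction that turned to 0.43 under normexp and to 0.20 with both probes averaged.

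*Alox5ap* was well above background on all 4 arrays, with 810 and 1421 in spinal cord and 146 and 424 in duodenum. It was 1.64-fold lower on the duodenum array labelled IP6K2-/- (log2 difference -0.71, technical SD 0.09) and 1.64-fold higher on the spinal cord array with that label (0.71, technical SD 0.06). *Alox5ap* is shared with leukocytes, and 14 lymphocyte and myeloid genes were set beside it. Of the 12 well above background on both duodenum arrays, 9 lay below 0, with a median of -0.52. Of the 13 on both spinal cord arrays, 10 lay above 0, with a median of 0.65. Of all genes on both arrays, 55.8% were below 0 in duodenum and 41.4% above 0 in spinal cord. In duodenum 1 of the 14 was at least 2-fold lower and 1 at least 2-fold higher, against 11.9% and 7.17% of all genes. With spiked-in controls all 12 genes of the list on both duodenum arrays were above 0, as was *Alox5ap*. The summed signal of these 14 genes was 36300 and 40825 in spinal cord and 6554 and 20674 in duodenum. The part of leukocytes in the *Alox5ap* difference was not tested.

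**Figure D2:**
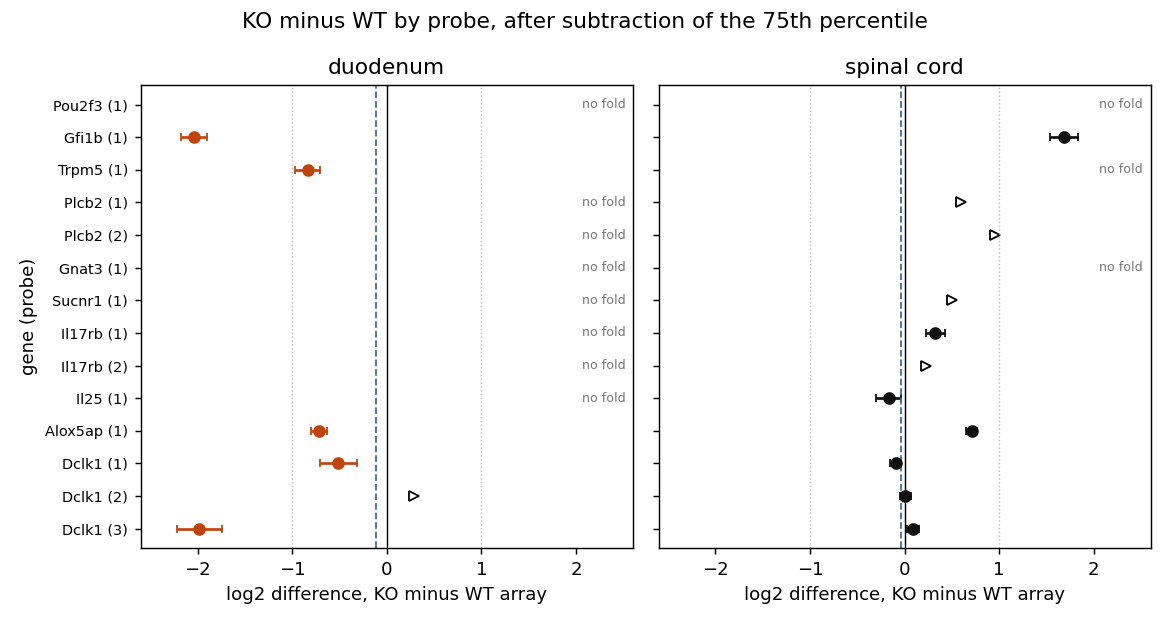
Log2 difference, IP6K2-/- labelled minus WT array, for each of the 14 probes of the tuft cell genes after subtraction of the 75th percentile, with bars for the technical SD, open triangles for lower bounds and "no fold" where no fold was measurable. The dashed line marks the median gene (-0.11 in duodenum and -0.04 in spinal cord) and the dotted lines mark 2-fold. Under this scaling *Gfi1b* lies at -2.03 in duodenum and 1.69 in spinal cord.

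Counted together, 4 of the 10 genes were well above background on both duodenum arrays, and these lay at -0.51 (*Dclk1*), -0.71 (*Alox5ap*), -0.83 (*Trpm5*) and -2.03 (*Gfi1b*), with a median of -0.77. These 4 are the genes that cleared the higher detection floor of the dim WT array, a normalized log2 value of -3.99 against -6.22 on the other, and the 4 genes seen on the array labelled IP6K2-/- alone could not enter, so this median describes the genes that passed and not all 10. With those 4 genes at 0 the median over 8 was -0.26. Of the 8 genes seen on at least 1 duodenum array, 1 was at least 2-fold lower on the array labelled IP6K2-/- and 0 were higher, against 11.9% lower and 7.17% higher over all genes seen on at least 1 of the arrays. A share of 1 in 8 is near that background. In spinal cord, 1 of 7 genes, *Gfi1b*, was at least 2-fold higher on the array labelled IP6K2-/- and 0 were lower, where 2.28% of all genes were higher and 0.892% lower. Between the tissues on the WT arrays, 3 of 6 genes (*Trpm5*, *Gfi1b* and *Alox5ap*) were at least 2-fold higher in duodenum and 1 (*Dclk1*) was lower, against 30.2% and 23.0% of all genes. On the arrays labelled IP6K2-/-, 4 of 9 (*Trpm5*, *Sucnr1*, *Pou2f3* and *Plcb2*) were at least 2-fold higher in duodenum and 2 (*Dclk1* and *Il25*) lower, against 30.3% and 25.4%. Of these calls, *Plcb2* was 0.44 with its probes averaged and -0.29 with spiked-in controls, *Pou2f3* was 0.79 with spiked-in controls, and *Il25* was -0.66 under quantile normalization of the 4 arrays and -0.80 under median scaling. Under normexp *Il25* had no measurable fold. *Gfi1b* and *Alox5ap* passed 2-fold between tissues on the WT arrays only, at 24.3-fold and 2.41-fold, while the values on the arrays labelled IP6K2-/- were 1.84-fold higher and 1.12-fold lower in duodenum. On the WT arrays the median gene was itself at 0.63 between tissues. Relative to it *Gfi1b* was at 3.97 and *Alox5ap* at 0.64. Spiked-in scaling turned *Gfi1b* to -0.43 and *Alox5ap* to -3.77 on the WT arrays, with the median gene at -4.41.

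The duodenum differences were then followed through each scaling. When the arrays were instead brought to equal signal of their spiked-in controls, all 4 genes were higher on the array labelled IP6K2-/-, *Dclk1* by 2.49, *Alox5ap* by 2.29, *Trpm5* by 2.17 and *Gfi1b* by 0.97, when the median gene differed by 2.89. This scaling raised every gene, those of the other cell type lists included, by 3.01 relative to the values above, so the sign went with the shift of the whole array. Relative to the median gene, which this scaling cannot change, the differences were -0.40 for *Dclk1*, -0.60 for *Alox5ap*, -0.72 for *Trpm5* and -1.92 for *Gfi1b*. Under normexp they were -1.03, -0.17, -0.81 and -1.37 in the same order. Set against the median of 15 genes of the intestinal epithelium, which was -0.20 in the same comparison, the differences were -0.31 for *Dclk1*, -0.52 for *Alox5ap*, -0.64 for *Trpm5* and -1.84 for *Gfi1b*. Another *Dclk1* probe had a bound above 0, smaller than its technical SD, as given above.

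**Figure D3:**
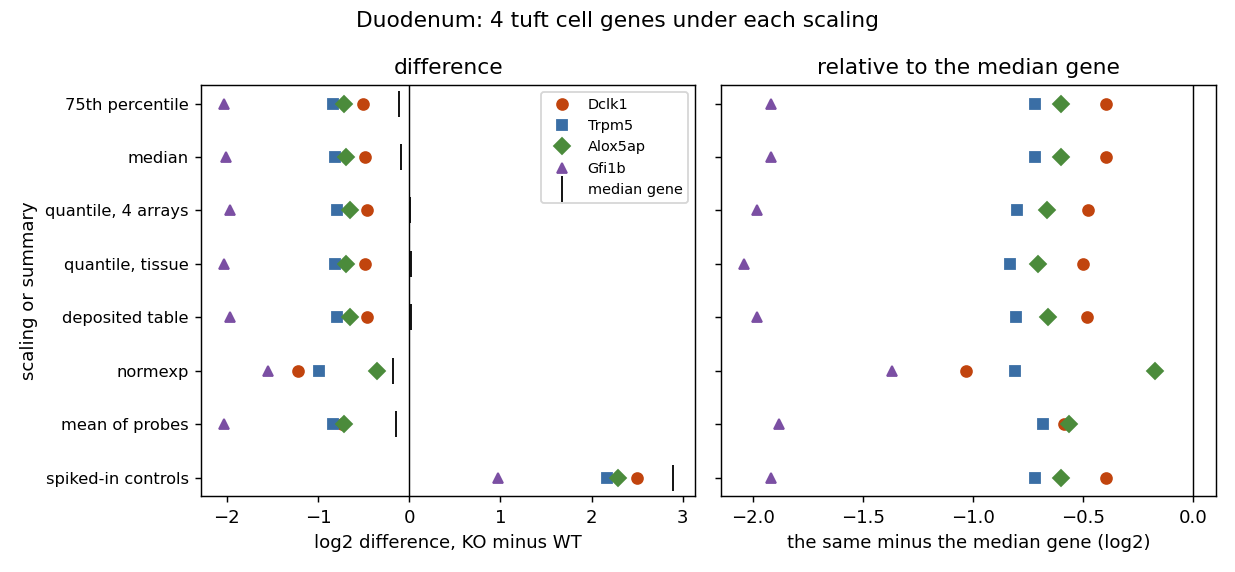
Duodenum log2 difference, IP6K2-/- labelled minus WT array, of the 4 tuft cell genes well above background on both arrays under each scaling or summary (left), and the same minus the median gene (right). Scaling on spiked-in controls puts all 4 above 0 with the median gene at 2.89, whereas relative to the median gene all 4 stay below 0.

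A list of 38 other genes known for tuft cells was described in the same way, of which 37 had a probe. On the duodenum arrays 36 were well above background at least once, 32 of them on both arrays. Among these 32, 24 were below 0 and 8 above, from -2.72 to 0.84, with a median of -0.55 where the median gene was -0.11. Of all genes on both arrays, 55.8% were below 0. At least 2-fold lower were 9 of the 36, where all genes gave 11.9%, and 0 were at least 2-fold higher. The largest differences were those of *Nrgn*, a calmodulin-binding protein also found in neurons, at -2.72, the homeobox genes *Hmx2* at -1.91 and *Hmx3*, the G protein regulator *Rgs13* at -1.81, the G protein gamma subunit *Gng13* and the taste receptor *Tas1r3* at -1.44, with *Hmx3* and *Gng13* both 2.82-fold lower. *Nrgn* was lower even as a raw signal, 62.2 on the WT and 44.8 on the IP6K2-/- labelled duodenum array. *Rgs13* gave 114 and 155 on the duodenum arrays and was not well above background in spinal cord. Raw signals were likewise higher on the duodenum array labelled IP6K2-/- for *Hmx2* (9.75 and 12.3, WT first) and *Hmx3* (36.0 and 60.6). The same held for *Gng13* (12.5 and 21.0) and *Tas1r3* (31.2 and 54.6). At the other end, *Trim38* was at 0.84, *Lrmp* at 0.56 and *Gfi1*, the paralog of *Gfi1b*, at 0.38. *Krt18*, a keratin that is also present in other epithelial cells, was the brightest of the list in duodenum and differed by -0.79. These values depend on the scaling. With spiked-in controls the median of the list, with genes that gave no fold at 0, was 2.38 in place of -0.27.

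The pathway lists overlap the lists above, so their counts in part repeat the same probes. Of the 8 genes of the taste-type cascade, 3 are tuft cell genes named at the start and 5 are other tuft cell genes. In the same order, the overlap is 1 and 4 of the 9 eicosanoid genes, and 2 and 3 of the 16 interleukin-25 circuit genes. By pathway, the 8 genes of the taste-type cascade had 4 with values on both duodenum arrays. All 4 were below 0, where 55.8% of all genes on both arrays were below 0. Of the 6 seen on at least 1 array, *Gng13* and *Tas1r3* were at least 2-fold lower, where 11.9% of all genes were. *Itpr3*, the receptor that releases calcium in the cascade, differed by -0.15. Of 9 genes of eicosanoid synthesis, 7 had values on both arrays and 6 of these were below 0, of which only *Ltc4s*, the leukotriene C4 synthase, was past 2-fold at -1.19, so 1 of 9 measured, near the share of all genes (11.9%). *Alox5*, the partner enzyme of *Alox5ap*, differed by -0.66 in duodenum and 0.64 in spinal cord, the same directions as *Alox5ap*. Among 16 genes of the interleukin-25 circuit, *Areg*, an epidermal growth factor family ligand, was the 1 of 12 measured past 2-fold, at -2.05, again near that share, and *Il13*, the cytokine of innate lymphoid cells that feeds back on the epithelium, was not well above background on any array. This count uses 1 probe per gene. *Il4ra* of this list was at -0.83 by the probe counted and at -2.04 by another. In spinal cord 2 of the 36 other tuft cell genes measured were past 2-fold, *Spib* at 1.88 and *Gfi1* at 1.12, both also expressed in leukocytes or their precursors, and the median of the list was 0.09. Of all genes seen on a spinal cord array, 2.28% were at least 2-fold higher.

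Other cell types of the duodenum were set beside the tuft cell genes. Median differences, taken over genes that both duodenum arrays detected, were -0.20 for 15 genes of the epithelium, of which *Fabp2* was the brightest, -0.45 for 8 goblet cell genes led by *Zg16*, -1.60 for 4 Paneth cell genes led by *Itln1* and 0.46 for 9 enteroendocrine genes led by *Sct*. They were -0.66 for 8 smooth muscle genes led by *Actg2*, -0.48 for 7 enteric neuron genes led by *Snap25*, -0.34 for 5 mast cell genes led by *Kit*, -0.48 for 5 neuron genes and -1.74 for 8 pancreatic acinar genes led by *Cela3b*. The enteric neuron and neuron lists share *Elavl4*, *Tubb3* and *Snap25*, and *Elavl4* at -0.48 is the median of both. Ranges were wide, from -1.81 to 0.64 within the epithelium list alone. The median of -0.77 over the 4 tuft cell genes counted the same way lies among those of the other lists. The summed signal of the epithelium list was 180543 on the WT and 390060 on the IP6K2-/- labelled duodenum array and 154 and 203 in spinal cord. That of the acinar list was 972652 and 1394780 in duodenum, and its part in the values of the other genes was not tested.

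**Figure D4:**
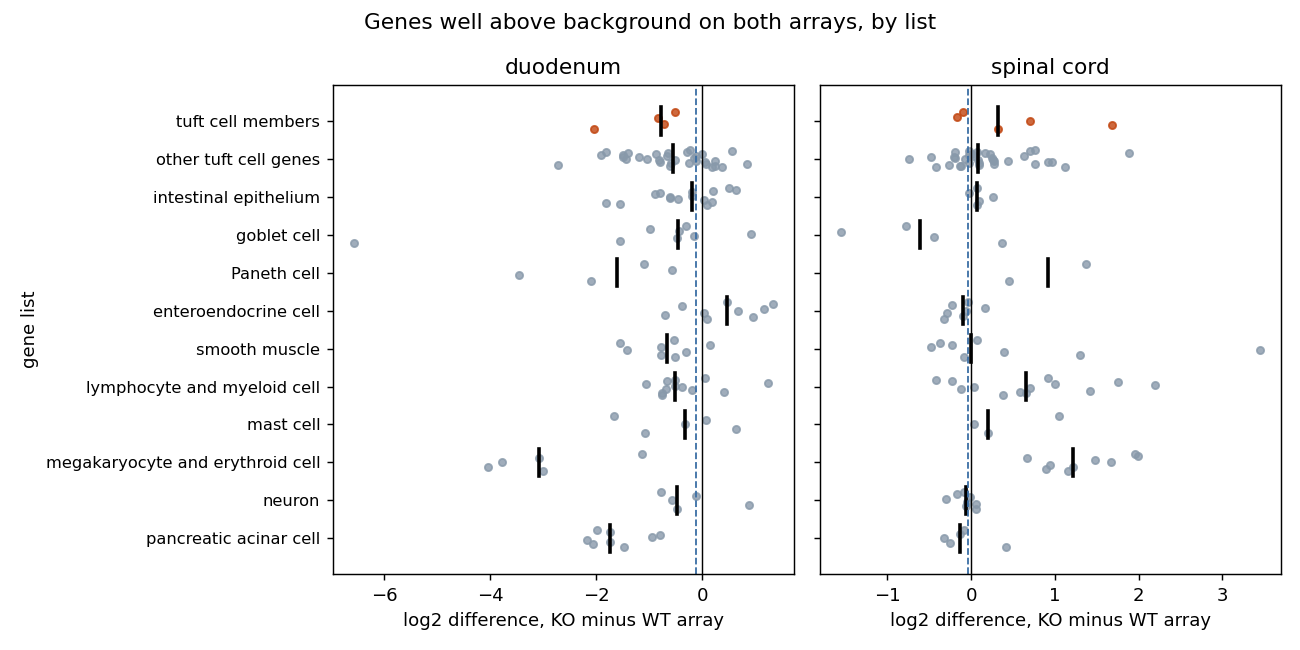
Log2 difference, IP6K2-/- labelled minus WT array, of each gene well above background on both arrays (points), by gene list, with black bars for the list's median over these genes and a dashed line for the median gene, after subtraction of the 75th percentile (spiked-in controls would raise every duodenum point by 3.01). The tuft cell genes (top row) have a median of -0.77 in duodenum, and the megakaryocyte and erythroid list sits at -3.08 in duodenum and 1.21 in spinal cord.

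The genes most like the tuft cell genes over the 4 arrays were sought by distance to the mean centred profile of the 4 genes well above background on both duodenum arrays. On both duodenum arrays 16817 genes or unmatched identifiers were well above background, and those with a gene symbol, members left out, were ranked. Nearest were *Adora2a*, *Acvrl1*, *Capg*, *Loxl1* and *Pla2g5*, at distances of 0.06 to 0.17 in log2 units. The 4 genes themselves lay 1.34 to 6.08 from their mean, *Trpm5* farthest, so the mean profile describes none of them closely and the ranking rests on 4 points.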

How the data were processed

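The authors deposited the scanner output of 4 one-color Agilent arrays (Feature Extraction 11.5.1.1), whose processed signals are background-subtracted intensity values, and a table of log2 values that the authors normalized. Over the probes well above background on an array, the table matched quantile normalization of the 4 arrays, with a median absolute difference of 0.00056 to 0.0022. Dimmer probes were not part of that comparison. Control spots and outlier flags were left out, spots of a probe were averaged, and log2 of the signal minus the 75th percentile of the array was used. Accessions were named through a RefSeq table (GRCm38.p6, names and promoters only) for 25862 of 26391 NM probes. The probe with the highest mean represents a gene. A gene well above background on 1 array has a bound, taken against the detection floor of the other array (its lowest normalized value called well above background) or the gene's own value if higher. All 10 genes were named. Values were given for the 6 other tuft cell genes of largest difference and for pathway genes past 2-fold. Other genes with values were chosen after these were seen. The members and lists were chosen with earlier results of these data known. No test was made with 1 array per group, and the number of arrays limits the precision. R 4.3.3 with limma 3.58.1 gave the normexp (offset 50) and quantile alternatives, and Python 3.11.15 the rest. The code was tested on simulated data.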

Additional observations from a re-analysis of the deposited data

Results flagged for a closer look

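After subtraction of the 75th percentile, 2 of the tuft cell genes differed in opposite directions in the tissues, a difference that was not tested. The duodenum difference of *Gfi1b* minus its spinal cord difference was -3.72 on the log2 scale, from -2.03 and 1.69, and that of *Alox5ap* was -1.42, from -0.71 and 0.71. The opposite directions depend on the scaling, since with spiked-in controls *Gfi1b* was at 0.97 in duodenum and 1.52 in spinal cord and *Alox5ap* at 2.29 and 0.54. Both genes are also expressed in blood lineages, whose lists are given above, and the part of those cells was not tested.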

How the results depend on the processing

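Among the summary values, 29 alternatives stayed within the technical SD of the main value, or within 1.5-fold for counts of genes, while 15 moved it and 4 reversed it. For single genes the numbers were 89, 54 and 12. A reversal was counted only where the main value exceeded its technical SD. The duodenum median, from -0.26 to 2.23 with spiked-in controls, thus counted as moved although its sign changed. Between tissues, the median over all genes on both arrays was itself 0.63 for WT and 0.30 for IP6K2-/- labelled arrays. Over all genes seen on at least 1 array, with genes that gave no fold at 0, it was 0 for each. Median differences over the tuft cell genes seen on at least 1 array of the pair, with genes that gave no fold at 0, were -0.26 for duodenum (8 genes) and 0.51 for spinal cord (7 genes) (IP6K2-/- labelled minus WT), and 0.63 for WT and 0.88 for IP6K2-/- labelled arrays (duodenum minus spinal cord). With spiked-in controls they were 2.23 in duodenum and -3.90 and -0.98 between tissues, and 2.38 in place of -0.27 for the other tuft cell genes. With only genes well above background on both arrays they were -0.77, 1.27 and 0.36, and -0.55 for the other tuft cell genes. Under normexp the spinal cord median was 0.0071, that between tissues (IP6K2-/- labelled) 1.16, and that of the other genes -0.46. The deposited table gave -0.18 between WT tissues, where quantile normalization of the 4 arrays gave 0.60. Median scaling gave 1.16 and averaged probes 0.44 between tissues labelled IP6K2-/-, and averaged probes -0.41 for the other genes. The count of genes at least 2-fold lower in duodenum was 1, and 2 under normexp, 0 with spiked-in controls, 2 without the filter on dim probes and 3 at 1.5-fold. Single genes reversed with spiked-in controls in duodenum (*Dclk1* 2.49, *Trpm5* 2.17, *Alox5ap* 2.29, *Gfi1b* 0.97) and between tissues (*Alox5ap* -3.77 and *Gfi1b* -0.43 on WT arrays, *Gfi1b* -0.98 and *Plcb2* -0.29 on arrays labelled IP6K2-/-). On the latter, *Alox5ap* was 0.12 under median scaling, and *Il17rb* 0.43 under normexp and 0.20 with averaged probes. Averaged *Dclk1* probes gave 0.0014 in spinal cord. Scalings that shift a whole array cannot change the value of a single gene seen on both arrays relative to the median gene, but they changed the medians that hold genes at 0 or at bounds (duodenum -0.14 to -0.66). The cause of the other changes was not tested. No paired analysis was possible because each group had 1 array. Probes near background carried few measurable folds on the WT duodenum array.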
